A study of Mus musculus with 18 samples.

Results

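The Gimap genes (GTPases of immunity-associated proteins) were followed from the naive B cell through the activated B cell to the plasma cell of mouse spleen, in mice with and without floxed alleles of the histone methyltransferase G9a. The table of deposited values was searched by symbol for Gimap1, Gimap3, Gimap4, Gimap5, Gimap6, Gimap7, Gimap8 and Gimap9. All 8 were present among its 12960 genes, no other symbol began with Gimap, and all 8 passed the filter on low values, as did 12787 genes in all. The rule for membership is the symbol, but the cluster itself was chosen by a view of its RPKM levels in these 18 libraries. Every level and every call given here is therefore a description that places a gene among all genes tested, not independent evidence that the cluster was regulated.

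Gimap proteins share an AIG1-type GTP-binding domain and are made mainly in lymphocytes, where they are anchored to or recruited to membranes of organelles. Several of them are known for their part in lymphocyte survival. Loss of Gimap5, a protein of lysosomes and late endosomes, depletes peripheral lymphocytes in rodents, and Gimap1, a Golgi protein, is needed for mature B and T cells. Gimap3 is the close relative of Gimap5, with a membrane anchor at its end. Gimap4 has been linked to the execution of cell death in T cells, Gimap6 to autophagy through binding of Gabarap family proteins, and Gimap7 to activation of GTP hydrolysis in other members. Gimap8 carries several GTP-binding domains.

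RNA was measured in 6 groups of 3 libraries, each library made from 1000 cells. All mice, controls included, carried 1 allele of a Cre recombinase that acts in the B lineage. Control mice (Ctrl) carried the Cre allele alone, and knockout mice (KO) were also G9afl/fl, so that G9a, the Ehmt2 gene product that methylates lysine 9 of histone H3, can be deleted. Mice received 50 µg of lipopolysaccharide (LPS) in 100 µl by the tail vein, and their spleens were sorted 72 h later into activated B cells (B220+GL7+) and plasma cells (CD138+ with intermediate or low B220). Dead cells and cells with F4/80, Cd11b or Thy1.2 were gated out of these sorts. Naive B cells came from uninfected mice by enrichment with CD43 beads, so cell type, LPS and isolation changed together between naive and activated cells and cannot be told apart. The sources used here give neither the ages of the mice nor whether replicates were separate animals, so p-values measure the spread between these libraries. Levels are RPKM, a read density corrected for gene length and sequencing depth, scaled between libraries. Estimated depth in mega-reads (M) was 1.63 to 4.07 M per naive library, 2.68 to 10.8 M per activated library and 5.13 to 6.93 M per plasma cell library. Naive libraries were also more variable, with a median SD of a gene of 0.369 (Ctrl) and 0.388 (KO) on the log2 scale, against 0.125 to 0.134 in the other groups.

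The labelled cell types were checked against their markers. Plasma cell Ctrl libraries held Sdc1, which encodes CD138, at 163 to 188 RPKM and activated Ctrl libraries at 0.734 to 1.28. Naive Ctrl libraries held Sdc1 at 4.71 to 10.1 RPKM. The proliferation marker Mki67 stood at 44.7 to 53.4 RPKM in activated Ctrl, against 1.05 to 1.64 in naive Ctrl. Plasma cell Ctrl had 65.5 to 73.7 RPKM, so Mki67 does not mark activated cells apart from plasma cells. Fcer2a, a naive B cell marker used here, stood at 308 to 435, 93.8 to 113 and 0.238 to 0.395 RPKM in naive, activated and plasma cell Ctrl. Ehmt2 itself was at 16.2 to 17.8 RPKM in Ctrl plasma cells and at 12.3 to 14.7 in those of KO. In activated cells the genotypes overlapped, at 19.5 to 25.7 RPKM in Ctrl and 21.6 to 23.3 in KO. Naive cells overlapped too, at 13.8 to 27.7 and 13.9 to 23.3 RPKM. Values over the whole gene include RNA outside any deleted part, so these do not check the deletion.

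The 8 genes lay side by side on chromosome 6 (RefSeq, GRCm38.p6), from base 48647186 to base 48770851, a stretch of 123666 bases with no other gene of the table between them. In chromosome order they were Gimap8 (Entrez 243374, chr6:48647186-48660875), Gimap9 (317758, chr6:48676121-48679116), Gimap4 (107526, chr6:48684578-48692062), Gimap6 (231931, chr6:48701583-48708244), Gimap7 (231932, chr6:48718621-48724636), Gimap1 (16205, chr6:48739047-48743795), Gimap5 (317757, chr6:48746197-48754200) and Gimap3 (83408, chr6:48764464-48770851). Gimap6 and Gimap3 are read from the reverse strand and the other 6 from the forward strand. In GENCODE M21 the read-through gene Gm28053 shares exons with Gimap7, Gimap1 and Gimap5 on the same strand, and Gimap1os runs antisense to Gimap1. The library kit does not mark strand, so reads from the stretches where exons of Gimap1 and Gimap1os overlap cannot be told apart. Of the 50-base words in Gimap1 transcripts, 34% also occur in genes other than Gm28053, Gimap1os among them. Words shared with Gm28053 made up 4.78% in Gimap1, 2.5% in Gimap5 and 1.39% in Gimap7. Levels of Gimap1, and to a smaller extent of Gimap5 and Gimap7, are uncertain where the counting could split such reads. Of the 50-base words in Gimap3 transcripts, 7.52% also occur in another member, Gimap5. For Gimap5 the share was 4.53%, and the other 6 members shared none.

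Promoters are shown for 3 members with contrasting patterns in the values that follow. Gimap3 had the lowest remaining share in plasma cells and the largest KO change there, Gimap4 rose on activation, and Gimap9 was the member whose plasma cell level was not called different from the activated level. Each window runs from 250 bases before to 50 bases after the RefSeq start, 5′ to 3′ on the gene's own strand, at chr6:48770802-48771101 (reverse) for Gimap3, chr6:48684328-48684627 (forward) for Gimap4 and chr6:48675885-48676184 (forward) for Gimap9. Capitals mark matches, on either strand, to the motifs searched.
Gimap3 promoter: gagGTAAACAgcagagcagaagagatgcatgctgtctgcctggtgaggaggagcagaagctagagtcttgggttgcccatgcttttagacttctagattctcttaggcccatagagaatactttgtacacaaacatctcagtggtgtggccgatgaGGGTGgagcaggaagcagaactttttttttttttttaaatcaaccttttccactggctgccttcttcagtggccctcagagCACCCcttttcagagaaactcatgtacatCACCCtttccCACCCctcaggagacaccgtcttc
Gimap4 promoter: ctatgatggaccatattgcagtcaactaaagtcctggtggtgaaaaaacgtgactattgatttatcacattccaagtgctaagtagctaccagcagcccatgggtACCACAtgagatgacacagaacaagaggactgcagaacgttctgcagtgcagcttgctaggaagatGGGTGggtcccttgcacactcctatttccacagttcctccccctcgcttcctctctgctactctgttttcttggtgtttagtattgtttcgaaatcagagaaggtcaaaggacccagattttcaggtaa
Gimap9 promoter: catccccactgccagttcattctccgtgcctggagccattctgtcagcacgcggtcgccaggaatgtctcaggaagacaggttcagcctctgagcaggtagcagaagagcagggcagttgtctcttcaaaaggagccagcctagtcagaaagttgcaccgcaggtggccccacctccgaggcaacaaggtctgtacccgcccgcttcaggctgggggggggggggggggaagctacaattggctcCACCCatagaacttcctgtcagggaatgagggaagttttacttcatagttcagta

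The motifs were searched on both strands of 32851 RefSeq promoter windows of this length, and 9 windows belong to the members because Gimap8 has 2. The core of KLF sites, CACCC, was found in at least 1 window of Gimap3, Gimap4, Gimap5, Gimap8 and Gimap9, and in 57.5% of all windows. The RUNX core, TGTGGT, was found in the windows of Gimap1, Gimap4 and Gimap7, and in 16.8% of all windows. The forkhead motif GTAAACA occurred in the Gimap3 window and in 3.65% of all windows. The TCF/LEF motif TTCAAAG occurred in the Gimap7 window and in 5.14% of all windows. A PU.1-like ETS motif, GGAAGTG, occurred in the windows of Gimap5 and Gimap6 and in 11% of all windows. The general ETS motif CCGGAAG, present in 8.86% of all windows, matched no window of a member. The same held for the E-box of Myc, CACGTG, present in 7.15% of all windows, and for the interferon regulatory factor motif, present in 3.44%. In capitals in the Gimap4 window both matches are on the opposite strand and so appear as reverse complements. Member windows held 2 to 8 CpG sites, against a median of 7 over all windows, and 43.3% to 57.3% GC against a median of 52.7%. These are matches of letters and say nothing of factor binding.

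In naive Ctrl B cells RNA of the cluster was abundant and its members differed in level. Gimap1 stood at 244 ± 20.3 RPKM (SD, n = 3) and Gimap3 at 234 ± 27.7, with overlapping libraries, followed by Gimap6 at 171 ± 20.5. Gimap7 (81.7 ± 9.96), Gimap5 (75.2 ± 27.4), Gimap4 (65.1 ± 9.64), Gimap9 (60.3 ± 10.7) and Gimap8 (48.9 ± 8) formed a lower group in which each neighbour in the order overlapped the next. Gimap5 was the most uneven, at 89.9, 92.1 and 43.6 RPKM in replicates 1, 2 and 3. The summed level of the 8 genes was 980 ± 108 RPKM in naive Ctrl and 1025 ± 40.2 in naive KO.

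**Figure D1:**
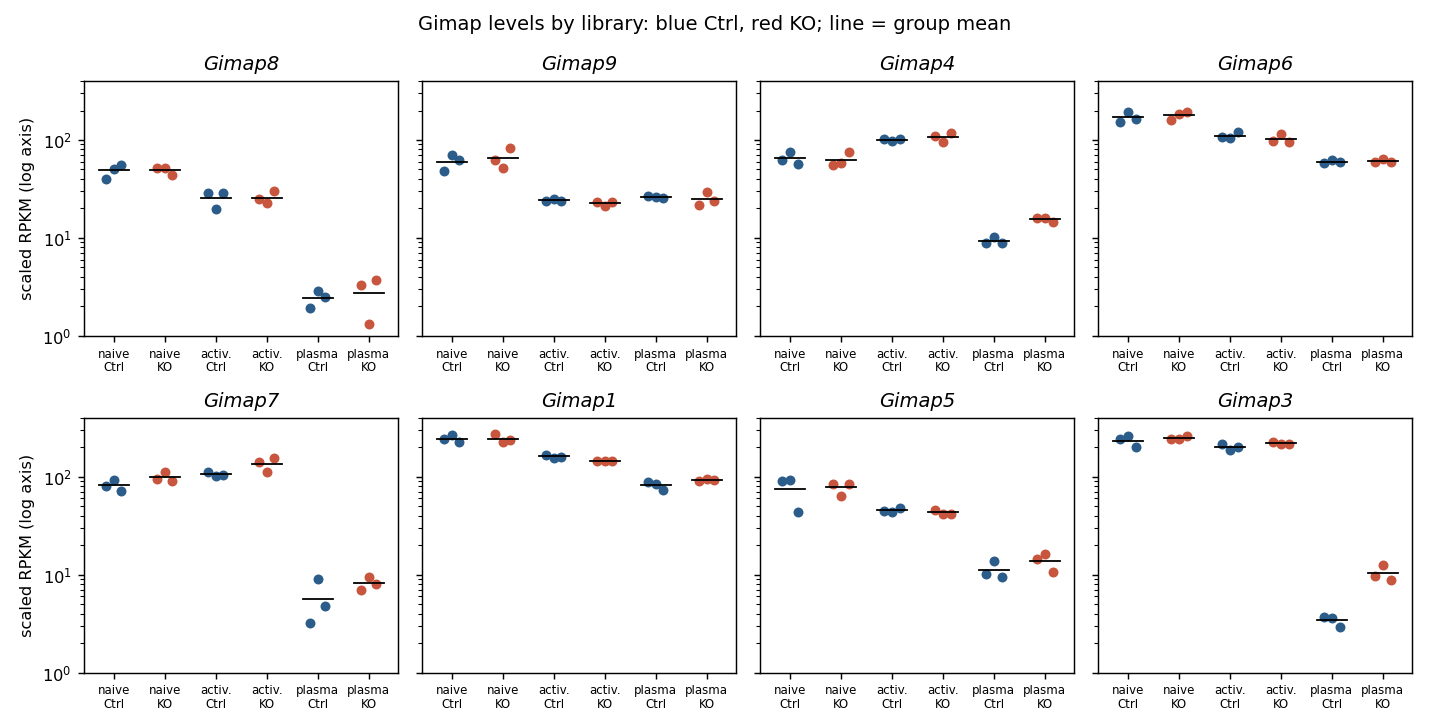
Scaled RPKM (log axis) of each Gimap gene in every library, in chromosome order of the genes, with Ctrl in blue, KO in red and a line at the mean of each group of 3 libraries. Gimap3 falls from 189 to 214 RPKM in activated Ctrl to 2.95 to 3.67 in plasma cell Ctrl, and its 3 plasma cell KO libraries lie above these at 8.72 to 12.5, while Gimap9 stays between 21.4 and 29.6 in all activated and plasma cell libraries.

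On activation in Ctrl, 5 members fell, 1 rose and 2 were not called. The background was broad: limma called 19% of the 12787 genes tested higher and 39.4% lower at an adjusted p under 0.05, with a median log2 change of -0.29 over all genes and -0.60 over the members. Gimap9 measured 48.7, 69.8 and 62.2 RPKM in the naive libraries and 24.0, 24.9 and 24.0 in the activated libraries, with no overlap (log2 change -1.26, SE 0.16, limma adjusted p = 5.5e-06). Gimap8 (log2 change -0.92), Gimap5 (-0.63), Gimap6 (-0.61) and Gimap1 (-0.59) fell as well, with limma adjusted p-values of 0.0026, 0.024, 0.00012 and 4.7e-05. Gimap1, with 224 to 265 RPKM in naive and 157 to 166 in activated libraries, and Gimap6, with 154 to 194 and 105 to 120, did not overlap either. Among all genes 41.4% were separated in this way in the lower and 20.4% in the higher direction. For Gimap5 naive replicate 3 (43.6 RPKM) lay just below the activated range of 44.1 to 48 RPKM. Without naive Ctrl replicate 1 or 2 the limma adjusted p of Gimap5 was 0.12 each, and without activated Ctrl replicate 1 or 3 it was 0.057 and 0.065. In bulk RNA a smaller share of expressing cells and less RNA per cell cannot be told apart.

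Markers of several other cell types, though not all, fell in the same comparison, in which limma called 39.4% of all genes lower and 19% higher. Of the T cell markers tested, 8 of 8 fell (median log2 change -1.42), and their summed level went from 214 to 270 RPKM in naive Ctrl to 121 to 153 in activated Ctrl. Cd2, which B cells also express, gave 180 to 216 and 113 to 144 RPKM of these sums. Cd4 stood at 0.659 to 12.5 RPKM in naive and 0.0274 to 0.096 in activated Ctrl, and Cd3e at 0 to 7.03 and 0 to 0.196. Of the endothelial markers 7 of 9 fell, with sums of 76 to 87.1 RPKM in naive and 36 to 41.7 in activated Ctrl. Of these sums Pecam1 alone gave 49 to 74.3 and 35.6 to 39.4 RPKM. Lower too were 7 of 9 monocyte or macrophage markers (137 to 159 against 32.1 to 36.5 RPKM), 4 of 4 platelet markers (47.7 to 111 against 1.28 to 1.52) and 4 of 4 erythroid markers (352 to 456 against 14.7 to 16.2). The neutrophil markers tested, 2 of 2, fell as well (11 to 24.4 against 0 to 1.32 RPKM). Itgam, on the monocyte or macrophage list, rose from 1.75 to 3.01 RPKM to 15.1 to 20.9. Dendritic cell sums overlapped (31.6 to 48.2 against 32 to 37.8 RPKM), with 5 of 7 markers lower and 1 higher. NK cell sums overlapped as well (2.92 to 5.71 against 3.27 to 7.32), with 1 of 3 lower and 1 higher. Naive cells were enriched with beads and activated cells were sorted. The part of these cells in the Gimap values on activation was not tested.

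Gimap4 moved the other way. It measured 62.2, 75.8 and 57.2 RPKM in naive Ctrl and 102, 98.7 and 102 in activated Ctrl, so that every activated library lay above every naive library (log2 change 0.63, SE 0.13, limma adjusted p = 0.00063). Gimap7 gave 81.1, 92.0 and 72.1 RPKM in naive and 113, 101 and 103 in activated Ctrl, also without overlap, but was not called (log2 change 0.37, 95% interval -0.09 to 0.84, limma adjusted p = 0.16). Gimap3 was not called either, with 203 to 258 RPKM in naive and 189 to 214 in activated Ctrl (-0.21, interval -0.46 to 0.05, limma adjusted p = 0.16). Quantile normalization brought the median of all genes from -0.29 to -0.06. With it the falls were larger, at -1.43 for Gimap9, -1.07 for Gimap8, -0.85 for Gimap5 and Gimap6 and -0.77 for Gimap1. The rise of Gimap4 was smaller, at 0.44. Relative to the median of -0.29, the changes were -0.97 for Gimap9, -0.62 for Gimap8, -0.34 for Gimap5, -0.32 for Gimap6, -0.30 for Gimap1 and 0.92 for Gimap4.

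The KO libraries gave the same calls in the same genes on activation: 1 of 8 rose and 5 fell, where limma called 21.2% of all genes higher and 34.5% lower. Gimap4 rose by 0.78 on the log2 scale (SE 0.13, limma adjusted p = 9.9e-05), from 55.8 to 75.6 RPKM in naive KO to 96.1 to 118 in activated KO. The 5 that fell were Gimap9 (-1.47), Gimap8 (-0.91), Gimap5 (-0.82), Gimap6 (-0.81) and Gimap1 (-0.75). The difference of the KO effect between activated and naive cells was called by limma for 0 of the 8 members and 2.62% of all genes, and none of the 8 had an unadjusted p under 0.05.

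Between the activated B cell and the plasma cell the cluster fell in parts and by very different amounts. In Ctrl 7 of 8 members fell, where limma called 16.7% of all genes lower and 16.1% higher, and the median change was -2.45 over the members and -0.03 over all genes. The size ran from a modest decrease to a near loss of the RNA, and Gimap9 was not called. Both this step and the step from naive cells use the activated libraries.

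Gimap3 fell most. It measured 214, 189 and 202 RPKM in activated Ctrl and 3.67, 3.63 and 2.95 in plasma cell Ctrl, so that 1.69% of the activated level remained (log2 change -5.52, SE 0.12, limma adjusted p = 7e-16). By the depth estimate these plasma cell values rest on about 60, 54 and 41 reads. Gimap7 dropped from 113, 101 and 103 RPKM to 3.23, 9 and 4.84, leaving 5.38% (-4.09, SE 0.22, limma adjusted p = 3.4e-11). Gimap4, which had risen on activation, dropped from 102, 98.7 and 102 RPKM to 8.86, 10.3 and 8.92, leaving 9.30% (-3.30, SE 0.13, limma adjusted p = 6.3e-13). Gimap8 went from 28.6, 19.6 and 28.6 RPKM to 1.91, 2.88 and 2.49, leaving 9.49% (-2.95, SE 0.23, limma adjusted p = 6.6e-09). Since 1 RPKM is added before the log, the log2 change of Gimap3 understates the ratio of means, which was 59.

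Gimap5 retained more. Its level went from 45, 44.1 and 48 RPKM to 10.2, 13.7 and 9.56, which is 24.4% (log2 change -1.96, SE 0.23, limma adjusted p = 1.2e-06). Gimap6 went from 108, 105 and 120 RPKM to 58.7, 62.6 and 59.2, which is 54.1% (-0.87, SE 0.11, limma adjusted p = 2.3e-06). Gimap1 went from 166, 157 and 159 RPKM to 87.9, 84.1 and 72.7, which is 50.7% (-0.97, SE 0.09, limma adjusted p = 1.1e-07). For all 7 members that fell, every plasma cell library lay below every activated library, as it did for 29.9% of all genes.

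Gimap9 did not follow. Its scaled level was 24.0, 24.9 and 24.0 RPKM in activated Ctrl and 26.9, 26.0 and 25.4 in plasma cell Ctrl (log2 change 0.10, 95% interval -0.24 to 0.44, limma adjusted p = 0.77). The groups did not overlap, as was so for 26.9% of all genes in the higher direction. The small difference changes sign with scaling, since the deposited values ran from 25.1 to 26.3 in activated and from 23.0 to 24.6 in plasma cell libraries. In KO Gimap9 measured 21.4 to 23.4 RPKM in activated and 21.6 to 29.6 in plasma cells, again not called (0.13, interval -0.21 to 0.47, limma adjusted p = 0.67).

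**Figure D2:**
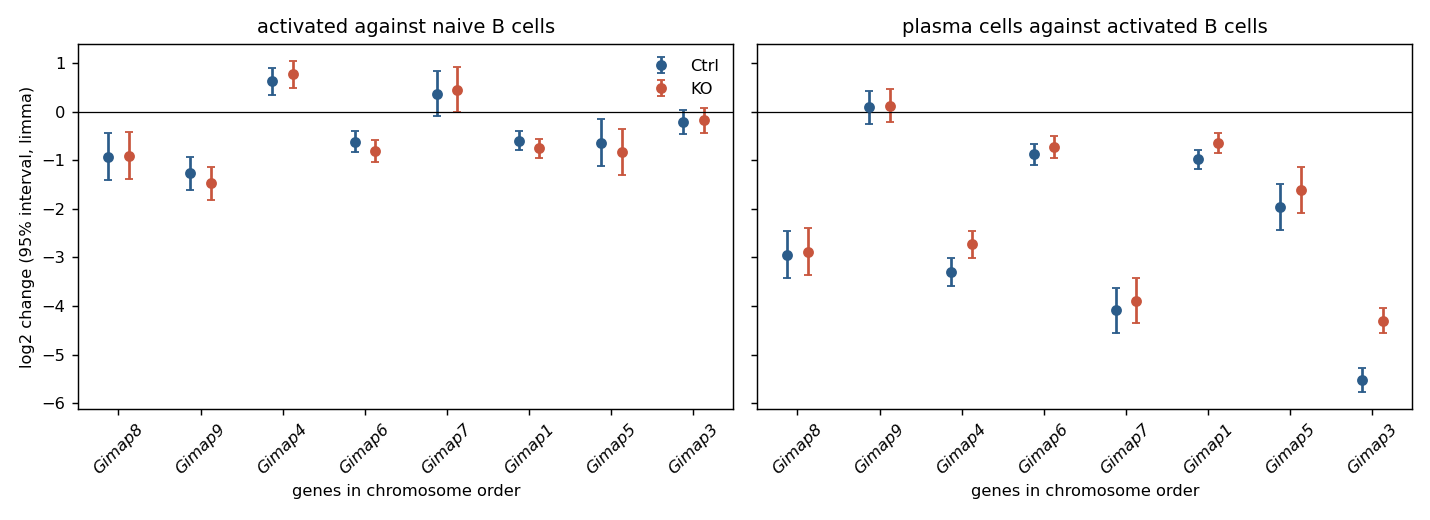
Log2 change with 95% interval from limma for each Gimap gene in chromosome order, from naive to activated B cells (left) and from activated B cells to plasma cells (right), with Ctrl in blue and KO in red. Gimap4 is the called gene above 0 on the left, and on the right the changes run from -5.52 for Gimap3 in Ctrl to 0.13 for Gimap9 in KO.

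Neighbours within the cluster could differ widely. Gimap9 and Gimap4 are neighbours, with 108% and 9.30% of the activated level remaining in plasma cell Ctrl. Gimap7 and Gimap1, also neighbours, retained 5.38% and 50.7%. The 2 genes on the reverse strand, Gimap6 and Gimap3, retained 54.1% and 1.69%. The nearest genes of the table outside the cluster had lower mean levels in naive Ctrl than any member. Zfp775, a zinc finger gene 25638 bases before Gimap8, had means of 4.98, 2.68 and 1.78 RPKM in naive, activated and plasma cell Ctrl. Further out on that side, Repin1 had 2.14, 1.39 and 1.68 RPKM and Lrrc61 had 13.5, 6 and 1.2. Zfp775 and Lrrc61 thus had lower means at each step, as Gimap1, Gimap3, Gimap5, Gimap6 and Gimap8 did. In plasma cells Lrrc61 measured 0.979 to 1.36 RPKM in Ctrl and 1.92 to 4.19 in KO, without overlap and in the direction of Gimap3 and Gimap4. Of all genes, 11.2% were separated in this higher direction. Tmem176b, a membrane protein gene 62960 bases after Gimap3, had 14.0 ± 3.73 RPKM in naive Ctrl, 0.716 ± 0.367 in activated Ctrl and 9.37 ± 3.96 in plasma cell Ctrl (n = 3 each). Tmem176a next to it had 8.10, 0.664 and 6.96 RPKM and Gpnmb 1.55, 0.151 and 4.58. Gpnmb was lower in plasma cell KO without overlap, at 4.02 to 4.92 RPKM in Ctrl and 3.42 to 3.9 in KO. The share of all genes separated in this lower direction is not given here, so the Gpnmb separation has no background. Zfp775, Repin1, Tmem176b and Tmem176a overlapped between genotypes in plasma cells.

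The unequal fall changed the makeup of the cluster's RNA, a ratio within each library that no scaling factor touches. The summed level was 776 ± 31.5 RPKM in activated Ctrl and 200 ± 13.1 in plasma cell Ctrl (SD, n = 3). Gimap1, Gimap6 and Gimap9 together made up 46.5% to 51.1% of the sum in naive Ctrl, 37.3% to 38.8% in activated Ctrl and 81.4% to 86.2% in plasma cell Ctrl. Gimap3 made up 25.6% to 26.7% in activated Ctrl and 1.58% to 1.82% in plasma cell Ctrl. Gimap9 went from 3% to 3.36% of the sum in activated Ctrl to 12.3% to 13.7% in plasma cell Ctrl. In plasma cells of either genotype the order was Gimap1, Gimap6, Gimap9, each apart from the next, with Gimap8 last.

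**Figure D3:**
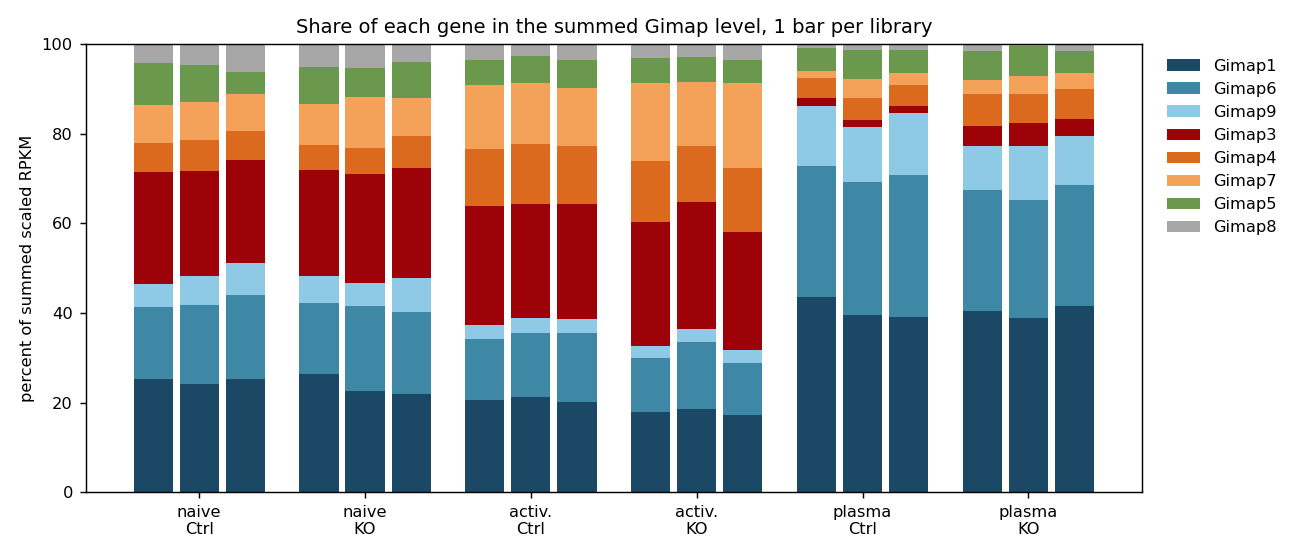
Share of each Gimap gene in the summed scaled RPKM of the 8 genes (percent), with 1 stacked bar per library and 3 bars per group. Blue shades are Gimap1, Gimap6 and Gimap9, which together fill 81.4% to 86.2% of the plasma cell Ctrl bars and 37.3% to 38.8% of the activated Ctrl bars, and dark red is Gimap3.

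Against naive B cells all 8 members were lower in plasma cells of both genotypes, where limma called 44.4% (Ctrl) and 37.1% (KO) of all genes lower. In Ctrl the changes ran from -1.16 for Gimap9 to -5.73 for Gimap3, and relative to the median of all genes, -0.37, from -0.79 to -5.36. Gimap8 retained 4.97% of its naive level and Gimap3 1.46%. None of the plasma cell libraries of any member overlapped a naive library of the same genotype, a separation in the lower direction that 44.9% (Ctrl) and 36.3% (KO) of all genes showed.

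The KO comparison asks how these genes differ between KO and Ctrl within a cell type. In naive B cells 0 of 8 members were called by limma, against 7.23% of all genes, and none had an unadjusted p under 0.05. Their log2 changes ran from -0.05 for Gimap4 to 0.27 for Gimap7. The limits of a 95% interval were widest for Gimap8, from -0.47 to 0.50, and narrowest for Gimap1, from -0.20 to 0.19. These intervals and the 7.23% rest on the spread shared with the less variable groups. In the fit of the naive libraries alone 0 genes were called. The SE there was 0.13 for Gimap1 (0.09 in the shared fit), 0.26 for Gimap5 (0.23) and 0.2 for Gimap8 (0.23). In activated B cells 0 of 8 were called, against 1.78% of all genes, again with none under 0.05 before adjustment, and the changes ran from -0.16 for Gimap1 to 0.35 for Gimap7. Activated KO libraries did not overlap the Ctrl libraries for Gimap3 (217 to 226 RPKM against 189 to 214), Gimap1 (143 to 146 against 157 to 166) and Gimap9 (21.4 to 23.4 against 24.0 to 24.9). Such a separation was shown by 15.3% of all genes in the higher and 16% in the lower direction.

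In plasma cells 2 of 8 members, Gimap3 and Gimap4, were higher in KO and 0 were lower, where limma called 0.438% of all genes higher and 0.172% lower. That background rests on the shared estimate of spread, since the fit of the plasma cell libraries alone called 304 genes higher and 349 lower, against 56 and 22, with the same 2 members among them. Gimap3 measured 3.67, 3.63 and 2.95 RPKM in Ctrl and 9.63, 12.5 and 8.72 in KO. The groups did not overlap, and the ratio of means was 3.01 (log2 change 1.34, SE 0.12, limma adjusted p = 4.6e-06). The estimated reads behind these values were 41 to 60 in Ctrl and 109 to 157 in KO. Gimap4 measured 8.86, 10.3 and 8.92 RPKM in Ctrl and 16.1, 15.9 and 14.5 in KO, a ratio of 1.65 (0.67, SE 0.13, limma adjusted p = 0.019). Gimap3 was called whichever plasma cell library was left out. The limma adjusted p of Gimap4 was 0.12, 0.10, 0.11, 0.11 and 0.055 without Ctrl replicate 1, Ctrl replicate 4, KO replicate 1, KO replicate 3 and KO replicate 4, with changes of 0.64 to 0.72.

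Gimap7 was not called in plasma cells, with 3.23, 9 and 4.84 RPKM in Ctrl and 6.99, 9.44 and 8.10 in KO (log2 change 0.54, unadjusted p = 0.025, limma adjusted p = 0.65). Ctrl replicate 3 lay inside the KO range. Gimap5 had 9.56 to 13.7 RPKM in Ctrl and 10.6 to 16.4 in KO (0.27, 95% interval -0.20 to 0.75). Gimap1 had 72.7 to 87.9 and 89.4 to 94.8 without overlap, as did 11.2% of all genes in this direction (0.18, interval -0.02 to 0.37). Gimap8 (1.91 to 2.88 against 1.33 to 3.69 RPKM), Gimap6 (58.7 to 62.6 against 60.0 to 64.5) and Gimap9 (25.4 to 26.9 against 21.6 to 29.6) overlapped between genotypes. Log2 changes of Gimap8, Gimap6 and Gimap9 were 0.08, 0.03 and -0.07.

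The KO values of Gimap3 and Gimap4 in plasma cells remained far below those of activated cells. Gimap3 at 10.3 ± 1.97 RPKM in plasma cell KO was 4.67% of activated KO (220 ± 4.73), and Gimap4 at 15.5 ± 0.889 was 14.3% of activated KO (108 ± 11.2). From activated to plasma cells the same 7 members fell in KO as in Ctrl, where limma called 17.4% of all genes lower, and the largest changes were -4.31 for Gimap3, -3.90 for Gimap7 and -2.89 for Gimap8. Gimap3 made up 3.94% to 5.11% of the cluster's RNA in plasma cell KO, and Gimap1, Gimap6 and Gimap9 together 77.3% to 79.4%. The summed level was 229 ± 13.4 RPKM (SD, n = 3).

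**Figure D4:**
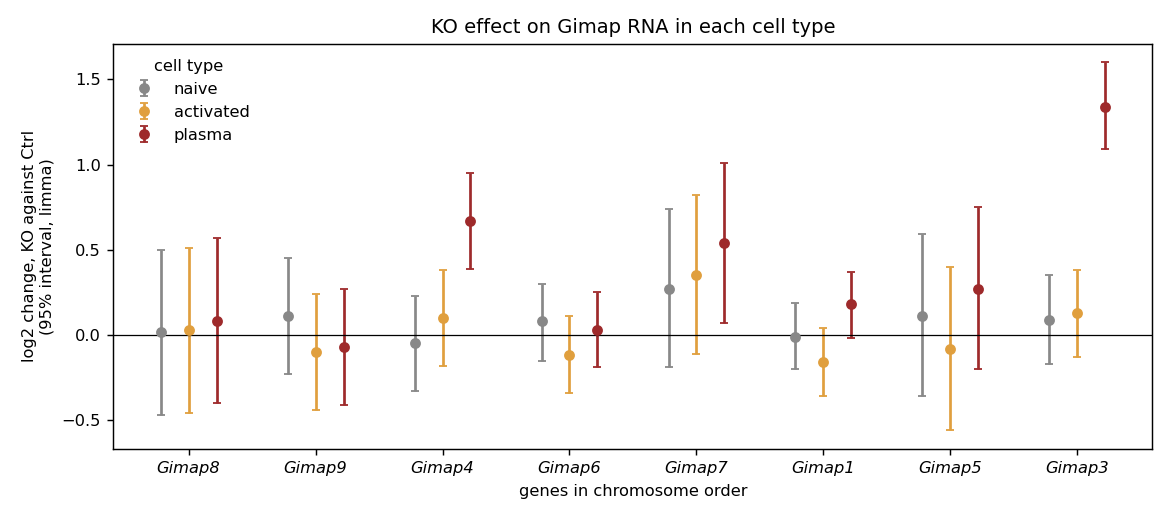
Log2 change of KO against Ctrl with 95% interval from limma for each Gimap gene in chromosome order, in naive (grey), activated (orange) and plasma cells (dark red). The plasma cell values of Gimap3 (1.34) and Gimap4 (0.67) are the called values, and the naive and activated intervals all include 0.

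Whether the KO effect differed between cell types was tested as a difference of differences. For Gimap3 the effect in plasma cells exceeded that in activated cells by 1.22 on the log2 scale (SE 0.17, limma adjusted p = 0.0031), where 0.156% of all genes were called, and that in naive cells by 1.25 (SE 0.17, limma adjusted p = 0.0011), where 1.38% were called. The call against naive cells was lost with library weights (limma adjusted p = 0.085) and with the replicate block (0.095). For Gimap4 the differences were 0.57 (unadjusted p = 0.0072, limma adjusted p = 0.70) and 0.72 (0.0013 and 0.067). Against activated cells Gimap4 was called in the fit of the compared libraries alone (limma adjusted p = 0.027). None of the other 6 members was called in either comparison.

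Markers of other cell types moved with this result in part. Of the 7 naive B cell markers used that were in the table (8 listed), 1 rose and 1 fell in plasma cell KO. In that comparison limma called 0.438% of all genes higher and 0.172% lower. Cr2, complement receptor CD21, rose from 13.1 to 14.9 RPKM in Ctrl to 20.8 to 24.2 in KO (log2 change 0.66, limma adjusted p = 0.027), and Cd79a, a B cell receptor subunit, fell by 0.82 (limma adjusted p = 6.5e-05). Fcer2a, the low-affinity IgE receptor CD23, was at 0.238 to 0.395 RPKM in Ctrl and 0.859 to 1.06 in KO, against 93.8 to 113 in activated Ctrl, and was not called (limma adjusted p = 0.11). Ms4a1, the B cell surface protein CD20, was at 79.3 to 91.3 RPKM in Ctrl and 79.8 to 91.3 in KO, so the groups overlapped. The summed level of these 7 markers was 1300 to 1630 RPKM in Ctrl plasma cells, against 940 to 1080 in KO. Most of it was Cd79a (695 to 889 against 416 to 475) and Cd79b (507 to 638 against 408 to 490). Cd79a and Cd79b were also called lower in activated KO (log2 change -0.56 and -0.58, limma adjusted p = 0.003 and 0.0033). The part of the 7 markers in the Gimap3 and Gimap4 values was not tested.

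Of 8 activated B cell markers 1 rose and 0 fell in plasma cell KO, against 0.438% and 0.172% of all genes. The marker that rose was Myc, a growth regulator, at 8.96 to 11.3 RPKM in Ctrl and 16.6 to 19 in KO (log2 change 0.75, limma adjusted p = 0.0077). Sums of the 8 were 294 to 320 RPKM in Ctrl and 307 to 365 in KO. Of 4 erythroid markers in the table (10 listed) 1 rose, the carbonic anhydrase gene Car2, from 1.25 to 1.93 RPKM to 5.22 to 7.57 (1.58, limma adjusted p = 0.00093). Erythroid sums were 1.7 to 2.19 RPKM in Ctrl and 9.27, 6.5 and 62.3 in KO replicates 1, 3 and 4. Monocyte or macrophage markers (9 in the table of 11 listed, 0 called) summed to 16.6 to 32 RPKM in Ctrl and to 21.5, 21.3 and 76 in KO replicates 1, 3 and 4. Plasma cell KO replicate 4 thus stood apart, with Csf1r at 6.35, Vcam1 at 13.2 and C1qc at 10.5 RPKM, against at most 0.889, 1.39 and 2.3 in Ctrl. Without that library the KO change was 1.44 for Gimap3 (limma adjusted p = 1.4e-05) and 0.72 for Gimap4 (0.055).

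T cells are rich in Gimap RNA, and 8 of 18 listed T cell markers were in the table. Their sum was 33.2 to 42.7 RPKM in Ctrl plasma cells, against 40 to 51.1 in KO. In plasma cell KO 1 of the 8, Cd3e, was called, where limma called 0.438% of all genes higher and 0.172% lower. Most of the Ctrl sum came from Cd2 and Cd28. Cd2 was at 18.6 to 25.4 RPKM in Ctrl and 12.4 to 19.9 in KO. Cd28 was at 12.6 to 14.6 and 12.3 to 15.8 RPKM, against 0.163 to 0.489 in activated Ctrl. Cd3e, a T cell receptor subunit, rose from 0 to 0.121 RPKM in Ctrl to 7.19 to 10.2 in KO (log2 change 3.16, limma adjusted p = 0.0013). In the same KO libraries Cd4 was at 0.0467 to 0.0739 RPKM, the T cell factor Tcf7 at 0 to 0.0549, Il7r at 0.146 to 0.419 and Lck at 0.909 to 1.98, with Lck at 1.09 to 2.06 in Ctrl. Cd8b1 was at 0.445 to 1.10 RPKM in Ctrl and 2.05 to 4.73 in KO. In naive libraries the T cell sum was 214 to 270 RPKM in Ctrl, of which Cd2, which B cells also express, gave 180 to 216. Among naive libraries Ctrl replicate 1 had the highest Cd3e (7.03 RPKM) and Cd4 (12.5). The 9 endothelial markers in the table (12 listed) summed to 3.24 to 6.61 RPKM in plasma cell Ctrl and 3.74 to 6.41 in KO.

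Related pathways were followed from lists of named genes. The immunity-related and guanylate-binding GTPases are interferon-induced proteins of cell-autonomous immunity, and 16 of the 17 listed were tested. On activation in Ctrl 4 rose and 9 fell (median -0.59), and from activated to plasma cells 2 rose and 9 fell (median -0.88, all genes -0.03). Of all genes 19% rose and 39.4% fell at the first step, and 16.1% and 16.7% at the second. Gbp2, which coats intracellular pathogens, fell from 33.9 to 36.3 RPKM in activated to 0.513 to 1.20 in plasma cell Ctrl. In plasma cell KO 1 rose, Gbp6, from 0.388 to 0.762 RPKM to 2.13 to 2.95 (log2 change 1.23, limma adjusted p = 0.021), and 0 fell. The shares of all genes there were 0.438% higher and 0.172% lower.

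Of 14 autophagy and apoptosis genes whose products or relatives have been reported to bind Gimap proteins, 13 were tested. From activated to plasma cells in Ctrl 6 rose and 2 fell, against 16.1% and 16.7% of all genes. Bcl2, a survival protein, fell from 12.9 to 13.5 RPKM to 1.87 to 2.67. The death promoter Bcl2l11 rose from 9.46 to 11.4 RPKM to 57.3 to 61.9, and the autophagy protein gene Map1lc3b rose by 1.06 on the log2 scale (limma adjusted p = 4.2e-07). In plasma cell KO against Ctrl 0 of the 13 were called by limma, where 0.438% of all genes were called higher and 0.172% lower.

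The list for lymphocyte quiescence and recirculation held 18 genes, all of them tested. On activation in Ctrl 0 rose and 17 fell (median -0.95), against 19% and 39.4% of all genes, and from activated to plasma cells 2 rose and 11 fell (median -0.89), against 16.1% and 16.7%. Btg1, an antiproliferative gene, went from 278 to 308 RPKM in naive Ctrl to 70.3 to 88.2 in activated Ctrl and 1.66 to 2.64 in plasma cell Ctrl. In plasma cell KO it was the 1 gene of the list called higher, at 3.41 to 5.80 RPKM (log2 change 0.72, limma adjusted p = 0.040), with 0 lower. The shares of all genes there were 0.438% higher and 0.172% lower. In activated KO 7 of the 18 fell, Btg1 among them (-0.94, limma adjusted p = 0.0030), where 1.36% of all genes were called lower.

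Over the 18 libraries the members' log2 levels were correlated to different degrees, which describes the contrast of 3 cell types rather than independent points. Pearson's r was 0.98 for Gimap1 with Gimap6, Gimap3 with Gimap7, and Gimap4 with Gimap7. It was 0.22 for Gimap4 with Gimap9 and 0.33 for Gimap7 with Gimap9. By rank, Gimap4 with Gimap9 gave a Spearman coefficient of -0.28. The 5 genes whose log2 levels ran most closely with the mean of the 8 standardised members were Lsp1, Sbk1, B3gnt5, Ripor2 and Tspan32, each with r = 0.994 over 18 libraries. Lsp1, a leukocyte actin-binding protein, measured 124 to 161 RPKM in naive Ctrl, 91.5 to 106 in activated Ctrl and 22.2 to 26.7 in plasma cell Ctrl. Tspan32, a tetraspanin of blood cells, measured 86.8 to 122, 56.3 to 68.2 and 6.12 to 7.01 RPKM, with 7.68 to 9.50 in plasma cell KO.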

How the data were processed

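The RPKM values used here were computed and deposited by the authors for 12960 detected genes, with 1 column per library and 18 libraries in 6 groups; 0 value columns went unused. STAR and mm10 are named in the submitters' processing notes. Not given in the sources used here are the gene models, the read counter, its use of strand, the detection criterion and the reads behind the total. Values were divided by median-of-ratios factors (0.903 to 1.07, from 8012 genes above 1 RPKM in all libraries). Genes with a mean of at least 1 RPKM in 1 group (12787) were tested on log2(scaled RPKM + 1), which understates changes of low genes. All libraries were fitted together by group in limma 3.58.1 under R 4.3.3 (trend, two-sided, no replicate block), and Benjamini-Hochberg adjusted p-values over all genes under 0.05 were called, in 12 contrasts. The script was tested on simulated data. SDs and ratios of means are on the RPKM scale.

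Depth was estimated from the spacing of low RPKM values after multiplication by gene length, with 33.5% to 41.6% of scored values within 0.1 of a whole read. The best-fitting of many candidate depths was taken, and part of the values would lie this near a whole read at any depth. Counts were not recovered, so no count test was run, and the estimated reads are approximate. Members and lists were chosen with earlier results of these data known. Named were all members, the 5 genes most like them (numbered Gm, Rik and LOC symbols left out), up to 3 flanking genes a side and up to 3 genes of each list by adjusted p, as far as results turn on them. Other genes were named from the marker lists. Some listed genes and details of the Cre allele are not reported here, and those genes were left out of list counts and sums. Promoters are from RefSeq, with a window for 8 of 8 members. Alternatives were other scalings, pseudocounts of 0.1, other filters, fits of the compared libraries alone, library weights, a replicate block and leaving out each library. Tables and plots were made in Python 3.11.15 (matplotlib 3.10.9, pandas 2.3.3, numpy 2.4.6).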

Additional observations from a re-analysis of the deposited data

Results flagged for a closer look

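The KO effect on Gimap3 was compared between cell types by a test of the difference itself. It was higher in plasma cells than in activated B cells by 1.22 on the log2 scale (SE 0.17, limma adjusted p = 0.0031) and higher than in naive B cells by 1.25 (SE 0.17, limma adjusted p = 0.0011). The difference from naive cells was not called with library weights (limma adjusted p = 0.085) or with the replicate block (0.095). All 3 plasma cell KO libraries lay above all 3 Ctrl libraries, and the ratio of means was 3.01 in plasma cells, 1.09 in activated and 1.06 in naive cells.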

How the results depend on the processing

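Of 46 called gene values, 385 recomputed under other settings (scaling, pseudocount, filter, fit, weights, block) gave 379 with the same call, 6 no longer called and 0 reversed, and of 288 with 1 library left out 279 kept the call, 9 lost it and 0 reversed. With library weights the number of members called in KO against Ctrl was 4 in plasma cells (Gimap3, Gimap4, Gimap5 and Gimap7) and 1 in activated cells (Gimap1). For the KO effect in plasma minus activated cells 1 member was called. The number was 3 with weights and 2 in the fit of the compared libraries alone, with the replicate block, and without the naive libraries (added after seeing the data). For plasma minus naive cells it was 1, and 0 with weights and with the block, where the adjusted p of Gimap3 was 0.085 and 0.095. The causes of these shifts were not tested. The shares of all genes called with weights, with the block and without the naive libraries are not given here. Counts of members under these settings therefore have no background to be set against. With 1 library left out, counts ran from 1 to 3 for KO in plasma cells, 1 to 2 for plasma minus naive and 5 to 6 for activation in Ctrl, and were fixed in the other 9 contrasts. Gimap8's fall on activation had adjusted p-values of 0.080 (Ctrl) and 0.091 (KO) with weights, and Gimap5's in Ctrl 0.066 in the fit of its own libraries and 0.11 with the block.

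In no pair of groups with 3 shared numbers did all same-numbered libraries deviate together with r above 0.1 (Ctrl with KO: 0.07 to 0.31 in plasma cells, -0.21 to 0.07 in activated cells, -0.19 to 0 in naive cells), so the numbers were not taken to pair samples. Differently numbered libraries of Ctrl and KO gave -0.28 to 0.1 in plasma cells, -0.1 to 0.26 in activated cells and -0.04 to 0.16 in naive cells. With 3 libraries per group this rule cannot exclude that samples were paired. With the replicate block the counts were otherwise 2 for KO in plasma cells, 0 in activated and 0 in naive cells, 6 on activation (in Ctrl with Gimap7 in place of Gimap5), 7 from activated to plasma cells and 8 from naive to plasma cells, in either genotype. The fit of the compared libraries alone moved counts over all genes. Against Ctrl, higher and lower calls in KO were 269 and 655 in naive cells (0 and 0 in that fit), 54 and 174 in activated cells (672 and 770) and 56 and 22 in plasma cells (304 and 349). They were 2055 and 2141 from activated to plasma cells in Ctrl (3083 and 3347), 2014 and 2221 in KO (3116 and 3628), 20 and 0 for the KO effect in plasma minus activated cells (160 and 48), 121 and 56 in plasma minus naive cells (17 and 6) and 173 and 162 in activated minus naive cells (8 and 16). Depth limits Gimap3, Gimap7 and Gimap8 in plasma cells most, with about 24 to 157 estimated reads per library.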
